A study of Mus musculus with 2 samples.

Results

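The genes described here are the colony-stimulating factors and the receptor chains that bind them, as measured by RNA-seq in mouse macrophages labelled as treated with interleukin-4. The members were chosen by symbol, and all 7 of 7 symbols were found among the 23444 gene symbols of the deposited tables. They were the ligand genes Csf1, Csf2 and Csf3, the GM-CSF receptor chain genes Csf2ra, Csf2rb and Csf2rb2, and the G-CSF receptor gene Csf3r. The series holds 2 libraries of bone marrow derived macrophages (BMDM) of the inbred mouse strain FVB, 1 from RON TK-/- mice, labelled RON deficient, and 1 from WT mice, labelled RON proficient. RON is a receptor tyrosine kinase of macrophages encoded by Mst1r. Both cultures were kept in high-glucose DMEM with serum and, per the labels, received recombinant interleukin-4 (rIL-4) at 10 ng/mL over 72 hours. The sources used here do not give the factor that grew macrophages from marrow, the number of mice behind each library or their age.

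Colony-stimulating factors are secreted proteins that drive the survival, growth and activation of myeloid cells. M-CSF, the product of Csf1, signals through the receptor kinase encoded by Csf1r and keeps macrophages alive. GM-CSF, the product of Csf2, binds an alpha chain (Csf2ra) that pairs with the common beta chain (Csf2rb) and signals through JAK2 and STAT5. The mouse has an additional beta chain gene, Csf2rb2, whose product serves interleukin-3 only. G-CSF, the product of Csf3, drives neutrophil production through Csf3r, a receptor of myeloid precursors and neutrophils. Macrophages make GM-CSF and G-CSF mainly after stimulation by microbial products or inflammatory cytokines.

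Gene levels were given in FPKM, which divides the fragments of a transcript by its length and by the mapped reads of its library, so that genes can be compared within a library. The values imply about 67100000 reads for the library labelled RON TK-/- and about 59800000 for the library labelled WT. With 1 library per group there was no replicate check, no test was run, and each statement compares 2 libraries and not the genotypes. The targeted gene Mst1r was listed at 0 FPKM in both libraries and so checked neither label. The marker genes of an interleukin-4 response went against a label, since Arg1 had 5041 FPKM under the RON TK-/- label and 1.0 FPKM under the WT label, where Retnla and Chil3 were listed at 0. The inflammatory cytokine Tnf had 0.525 FPKM under the RON TK-/- label and 1262 FPKM under the WT label. Every direction below therefore rests on the labels as deposited, and values under a label are those of the library that carries it.

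Macrophage markers were present in both libraries. All 7 were detected, meaning at least 1 FPKM in either library, and they summed to 6275 FPKM under the RON TK-/- label and 4521 FPKM under the WT label. Lyz2, the lysozyme gene, made up most of both sums, with 4651 FPKM under the RON TK-/- label and 3317 FPKM under the WT label. The integrin gene Itgam was higher, with 185 FPKM under the RON TK-/- label and 61.0 FPKM under the WT label. The Fc receptor gene Fcgr1 was lower, with 3.58 FPKM under the RON TK-/- label and 26.6 FPKM under the WT label, as was the receptor kinase gene Mertk, with 9.68 FPKM under the RON TK-/- label and 32.5 FPKM under the WT label. Of 6 fibroblast markers 5 were detected, and 2 were higher by 2-fold or more and 0 lower by as much under the RON TK-/- label. By that measure 25.6% of all detected genes were higher and 8.71% lower. The fibroblast list summed to 892 FPKM under the RON TK-/- label and 669 FPKM under the WT label. The higher markers were the collagen gene Col3a1, with 171 FPKM under the RON TK-/- label and 48.5 FPKM under the WT label, and the growth factor receptor gene Pdgfra, with 24.3 FPKM under the RON TK-/- label and 8.93 FPKM under the WT label. The collagen gene Col1a2 had 433 FPKM under the RON TK-/- label and 407 FPKM under the WT label, while the proteoglycan gene Lum had 0.181 FPKM under the RON TK-/- label and 0.394 FPKM under the WT label. The detected fibroblast markers had a median log2 ratio of FPKM + 1 of 0.60, near the 0.57 of all detected genes. With that 0.57 subtracted, 1 fibroblast marker was higher by 2-fold or more and 0 lower. The shares among all detected genes were then 8.38% higher and 14.4% lower. Fibroblasts are a known source of M-CSF. Their part in the Csf1, Csf2 and Csf3 levels below was not tested. In bulk RNA, fewer cells of a type and less RNA per cell cannot be told apart.

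Between the libraries, 0 of the 7 genes were higher by 2-fold or more and 2 were lower by 2-fold or more under the RON TK-/- label than under the WT label. The measure was the log2 ratio of FPKM + 1. Of 11288 detected genes, 25.6% were higher and 8.71% were lower by that much. The lower genes were Csf2 and Csf3, both inducible ligands. Csf1, Csf2rb and Csf2rb2 were also lower but within 2-fold, Csf2ra was level, and Csf3r was higher within 2-fold. With values rescaled to TPM, Csf2rb2 at -1.01 passed 2-fold, and so did Csf3r in the higher direction. The TPM values are larger than the FPKM values, so the added 1 also weighs less in that setting. The median log2 ratio of the 7 genes was -0.73, whereas that of all detected genes was 0.57. Relative to that median 0 of the 7 genes were higher by 2-fold or more, as 8.38% of all detected genes were, and 5 were lower, as 14.4% were. Csf1, Csf2rb and Csf2rb2 joined Csf2 and Csf3 on that scale. With a threshold of 1.5-fold 1 of the 7 genes was higher, against 48.9% of all detected genes, and 5 were lower, against 12.5%. Relative to the median that threshold gave 0 higher, against 19.2%, and 5 lower, against 22.9%.

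**Figure D1:**
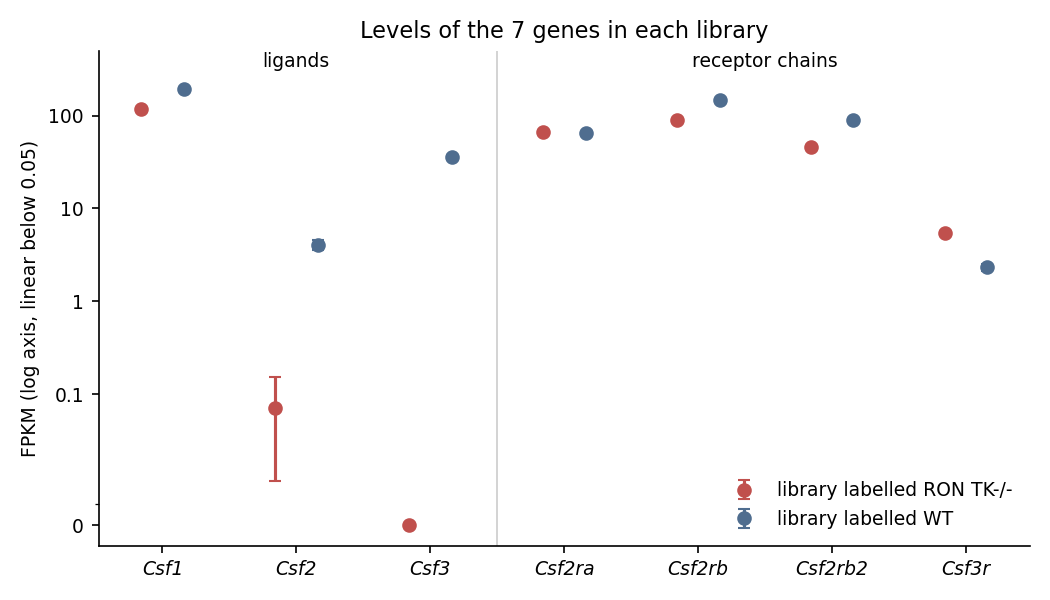
FPKM of each gene (log axis, linear below 0.05) for the library labelled RON TK-/- (left point of each pair) and the library labelled WT (right point), with bars for the 95% counting interval. Csf2 and Csf3 lie far apart between the libraries, Csf2ra is level at 66.6 FPKM under the RON TK-/- label and 65.4 FPKM under the WT label, and Csf3r is the gene whose point is higher under the RON TK-/- label, with 5.48 FPKM against 2.33 FPKM under the WT label.

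Csf3 encodes G-CSF. In the mm10 build its locus spans 98701313 to 98703629 on chromosome 11, with 1 row of 1363 bases (NM_009971). The files listed it at 0 FPKM under the RON TK-/- label and at 36.2 FPKM under the WT label (95% counting interval 35 to 37.6, from about 2970 estimated reads). At the depth of the library labelled RON TK-/- 3 reads would have given 0.0328 FPKM. No fold is given against a value of 0. On the FPKM + 1 scale the log2 ratio was -5.22, a value set largely by the added 1, and 0.523% of detected genes had a lower ratio. Intervals and limits of this kind cover counting error only, since reads amplified by PCR are not independent molecules. No window of read length in the Csf3 transcript was shared with another gene of the GENCODE annotation.

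Csf2 encodes GM-CSF and lies on chromosome 11 from 54247270 to 54249899, as 1 row of 1033 bases (NM_009969). It had 0.0699 FPKM under the RON TK-/- label (interval 0.0215 to 0.154, from about 5 estimated reads) and 4.08 FPKM under the WT label (3.58 to 4.61, from about 249 estimated reads). The level was thus low under the WT label and near the limit of the depth in the other. The ratio of the FPKM values was 58.4-fold lower under the RON TK-/- label, with a counting interval of 24.7 to 181. The log2 ratio was -2.25 on the FPKM + 1 scale, which understates the difference of such a low gene. Of 751 windows of 50 bases, the read length, in the matched Csf2 transcript, 6.39% also occur in 1 other gene of the GENCODE annotation, and whether any of the 5 reads fell there was not tested. With a minimum of 5 FPKM Csf2 would not have been kept.

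Messenger RNAs of inducible cytokines often carry AU-rich elements, repeats of ATTTA in the 3' untranslated region (3' UTR) through which proteins such as tristetraprolin, the product of Zfp36, speed mRNA decay. The windows of 30 bases richest in ATTTA are shown for the ligand genes, because they set the inducible ligands beside Csf1. ATTTA is in capitals, the sequence is the mRNA strand with T for U, and it was read from the GENCODE M21 transcripts of the C57BL/6J reference (GRCm38), not from FVB.
Csf2, chr11:54247327-54247356, minus strand: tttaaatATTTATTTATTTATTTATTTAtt
Csf3, chr11:98702984-98703013, plus strand: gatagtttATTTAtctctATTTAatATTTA
Csf1, chr3:107741109-107741138, minus strand: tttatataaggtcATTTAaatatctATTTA
The 3' UTR of Csf2 held 9 copies of ATTTA in 317 bases, counted with overlaps, and 4 copies of the longer element TTATTTATT, which contains ATTTA. Among 3' UTRs of at least that length, read over their first 317 bases, 1.54% of 16326 held TTATTTATT and 0.0184% held as many copies of ATTTA. That of Csf3 held 6 copies of ATTTA in 669 bases, a number that 1.30% of 12757 regions of that length reached, and 0 copies of TTATTTATT. The long 3' UTR of Csf1 held 4 copies in 2111 bases, which 49.5% of 5007 regions reached. The 3' UTRs of the receptor genes Csf2ra, Csf2rb, Csf2rb2 and Csf3r held 0 copies. A match of letters is a description of the sequence and not a measured decay rate.

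Csf1 encodes M-CSF and lies on chromosome 3 from 107741048 to 107760469. It was the most abundant of the 7 genes in both libraries. It had 117 FPKM under the RON TK-/- label (interval 115 to 118) and 195 FPKM under the WT label (193 to 197). The ratio of the FPKM values was 1.67-fold lower under the RON TK-/- label (counting interval 1.64 to 1.69), and the log2 ratio was -0.73. Of all detected genes 11.0% had a lower ratio. Csf1 ranked 591 under the RON TK-/- label and 396 under the WT label among all gene symbols ordered by FPKM.

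The files list Csf1 as 3 RefSeq transcripts, and the difference sat mainly in the longest. NM_007778, of 4176 bases, encodes a protein of 552 residues, from which soluble M-CSF is released by cleavage, and has the long 3' UTR. It had 93.4 FPKM under the RON TK-/- label and 166 FPKM under the WT label. NM_001113529, of 3291 bases, has the same 3' UTR but a protein of 257 residues, the short form known to stay at the cell surface. It had 14.3 FPKM under the RON TK-/- label and 14.9 FPKM under the WT label, so that this row was nearly level. NM_001113530, of 2324 bases, encodes the 552 residues with a 3' UTR of 259 bases that held 0 copies of ATTTA. It had 9.12 FPKM under the RON TK-/- label and 13.8 FPKM under the WT label.

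As shares of the gene's FPKM, which do not depend on the scaling between libraries, the short protein form made up 12.2% under the RON TK-/- label and 7.68% under the WT label. The long form with the long 3' UTR made up 80.0% under the RON TK-/- label and 85.2% under the WT label. The row with the short 3' UTR made up 7.81% under the RON TK-/- label and 7.08% under the WT label. These rows overlap in most of their bases, and single reads of 50 bases were divided among them by the authors' program, so the shares carry an error that the files do not give.

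**Figure D2:**
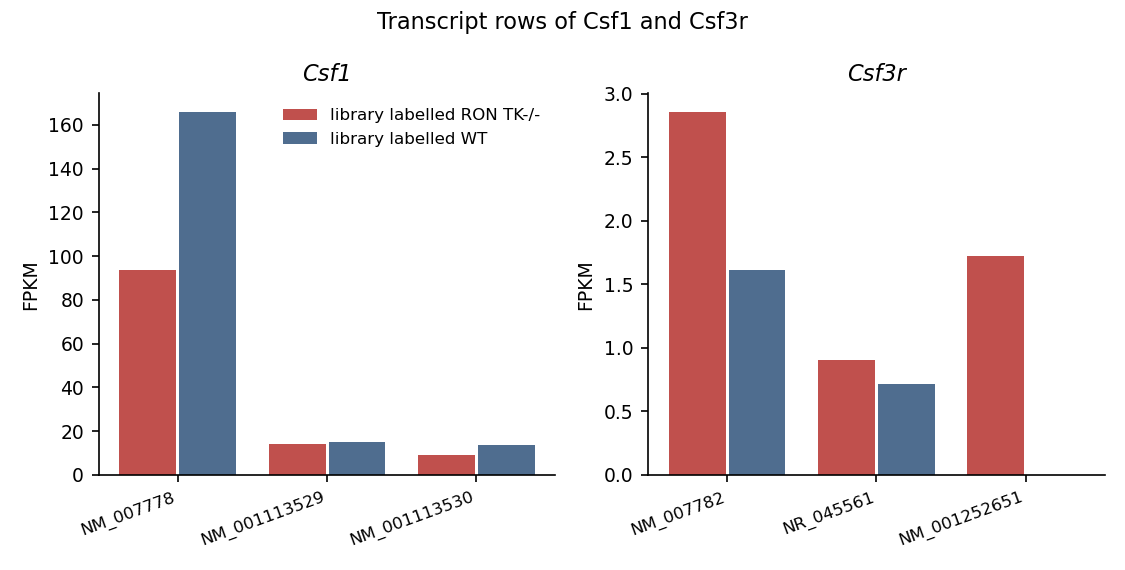
FPKM of each transcript row of Csf1 (left panel) and Csf3r (right panel), with bars for the library labelled RON TK-/- (left of each pair) and the library labelled WT (right), on separate linear axes. NM_001113529 of Csf1 is nearly level while NM_007778 differs, and NM_001252651 of Csf3r has a bar at 1.72 FPKM under the RON TK-/- label and is near 0 under the WT label.

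Ligand and receptor of M-CSF ran in opposite directions. Csf1r, the M-CSF receptor gene, had 267 FPKM under the RON TK-/- label and 184 FPKM under the WT label. Csf1 over Csf1r was therefore 0.438 under the RON TK-/- label and 1.06 under the WT label, a ratio 2.42-fold lower under the RON TK-/- label. This comparison is within each library and is free of the scaling between them. Relative to the median over detected genes, however, Csf1r lay at -0.03 on the log2 scale, so that its higher level was no larger than that of the typical gene.

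The GM-CSF receptor genes differed by chain. Csf2ra encodes the alpha chain, which gives GM-CSF binding its specificity, and lies on chromosome 19 from 61224402 to 61228418. It had 66.6 FPKM under the RON TK-/- label (interval 65.2 to 68.1) and 65.4 FPKM under the WT label (63.9 to 67.0). The intervals overlap, and the log2 ratio was 0.03. Its sign depends on the scaling, since it lay at -0.54 relative to the median over detected genes. Of all detected genes 24.4% had a lower ratio.

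Both beta chain genes were lower under the RON TK-/- label. Csf2rb encodes the common beta chain of the GM-CSF, interleukin-3 and interleukin-5 receptors and lies on chromosome 15 from 78325990 to 78351001. It had 88.7 FPKM under the RON TK-/- label (interval 87.6 to 89.7) and 146 FPKM under the WT label (145 to 148), with a log2 ratio of -0.71. Csf2rb2, its neighbour from 78282510 to 78305603, had 46.2 FPKM under the RON TK-/- label (45.4 to 47.0) and 89.2 FPKM under the WT label (88.0 to 90.3), with a log2 ratio of -0.93. The ratios of the FPKM values were 1.65-fold lower for Csf2rb (1.62 to 1.67) and 1.93-fold lower for Csf2rb2 (1.89 to 1.97). Among detected genes 11.3% had a lower ratio than Csf2rb and 9.13% a lower ratio than Csf2rb2.

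The beta chain genes share part of their sequence, so the division of reads between them carries some uncertainty. The GENCODE transcripts matched to the listed rows aligned over 4647 bases with 91.5% identity. Of the windows of 50 bases, the read length, in the Csf2rb2 transcript, 19.0% were found in Csf2rb, and 18.9% of those in Csf2rb were found in Csf2rb2. Reads from these windows cannot be assigned to either gene by sequence. How the authors counted such reads is not stated. The sum of both genes, which does not depend on how reads counted once were divided, came to 135 FPKM under the RON TK-/- label and 235 FPKM under the WT label. Within the sum Csf2rb2 took 34.2% under the RON TK-/- label and 37.9% under the WT label. In estimated reads it took 32.3% under the RON TK-/- label (Wilson 95% interval 31.8% to 32.7%) and 35.8% under the WT label (35.5% to 36.2%).

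Set against the alpha chain within each library, the beta chains together stood at 2.02 times Csf2ra under the RON TK-/- label and 3.60 times under the WT label. For the common beta chain alone the ratio was 1.33 under the RON TK-/- label and 2.23 under the WT label. The beta to alpha ratio was thus 1.78-fold lower under the RON TK-/- label for both beta chains and 1.68-fold lower for Csf2rb alone. The order of the chains also differed, with Csf2ra above Csf2rb2 under the RON TK-/- label and below it under the WT label. These are mRNA levels, and the amount of each chain at the cell surface was not measured.

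Csf3r encodes the G-CSF receptor and lies on chromosome 4 from 126024659 to 126044975. It was the gene of the 7 with the higher level under the RON TK-/- label outside its counting error, at 5.48 FPKM (interval 5.20 to 5.77) against 2.33 FPKM under the WT label (2.14 to 2.54). The ratio of the FPKM values was 2.35-fold (2.13 to 2.60), while the log2 ratio on the FPKM + 1 scale was 0.96, just under 2-fold. Relative to the median over detected genes it was 0.39, and 72.7% of detected genes had a lower ratio. Csf3r thus lay on the side where most genes lay.

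Its listed transcripts did not differ alike. NM_007782, of 3907 bases, had 2.86 FPKM under the RON TK-/- label and 1.61 FPKM under the WT label. NR_045561, which RefSeq lists as non-coding, had 0.904 FPKM under the RON TK-/- label and 0.717 FPKM under the WT label. NM_001252651, of 3583 bases, had 1.72 FPKM under the RON TK-/- label and 0.000611 FPKM under the WT label. It made up 31.4% of the gene under the RON TK-/- label and 0.0262% under the WT label, but the rows share nearly all of their bases and the files do not give the error of that division. Of the windows of 50 bases in the matched Csf3r transcript 11.5% also occur in transcripts of other genes, 402 in number. How many of the Csf3r reads fell there was not tested.

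Neutrophil markers were set beside Csf3r because neutrophils carry its product. Of 11 markers found in the files, 2 were detected, and the list summed to 3.41 FPKM under the RON TK-/- label and 3.61 FPKM under the WT label. The detected ones were Mmp8 and S100a8. Mmp8 had 1.38 FPKM under the RON TK-/- label and 0.586 FPKM under the WT label. S100a8 had 1.75 FPKM under the RON TK-/- label and 1.44 FPKM under the WT label. Camp was listed at 0 under the RON TK-/- label and had 0.898 FPKM under the WT label. The granule genes Mpo, Elane and Ngp and the genes S100a9 and Retnlg were listed at 0 in both libraries. The part of neutrophils in the Csf3r levels was not tested.

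**Figure D3:**
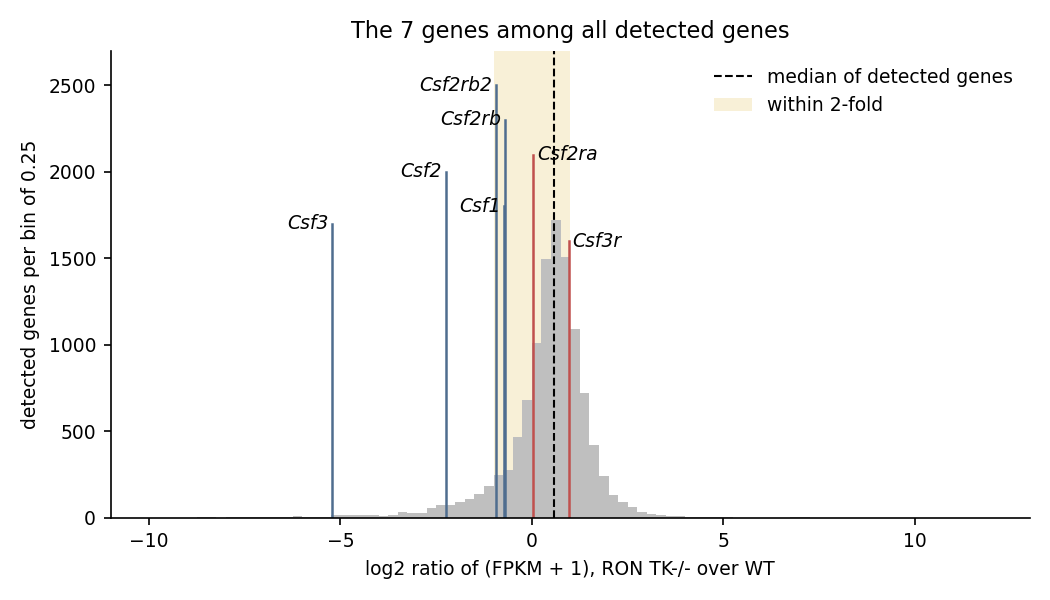
Number of detected genes per bin of the log2 ratio of FPKM + 1, the library labelled RON TK-/- over the library labelled WT (grey), with a vertical line for each of the 7 genes; line heights only separate the names. The dashed line is the median of detected genes at 0.57 and the shaded band is within 2-fold. All of the 7 genes except Csf3r lie left of the dashed line, and Csf2 and Csf3 lie outside the band.

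In order of level the library labelled RON TK-/- had Csf1, Csf2rb, Csf2ra, Csf2rb2, Csf3r, Csf2 and Csf3. The library labelled WT had Csf1, Csf2rb, Csf2rb2, Csf2ra, Csf3, Csf2 and Csf3r. Neighbours in each order had counting intervals that did not overlap, apart from the zero of Csf3, which has no interval, but the spread between cultures is unknown. In the library labelled RON TK-/- Csf3r stood above both inducible ligands, and under the WT label it stood below both.

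Promoter windows of 250 bases before the RefSeq start were given for 5 of the 7 genes (RefSeq, GRCm38.p6), and Csf3 and Csf2rb are named only. Windows are shown, for Csf1 and Csf2rb2, which were lower under the RON TK-/- label, and for the level gene Csf2ra. Capitals mark matches on either strand to the NF-kB consensus, to the STAT pattern TTCNNNGAA or to GAGGAA, the core bound by the myeloid factor PU.1.
Csf1, chr3:107760470-107760719, minus strand: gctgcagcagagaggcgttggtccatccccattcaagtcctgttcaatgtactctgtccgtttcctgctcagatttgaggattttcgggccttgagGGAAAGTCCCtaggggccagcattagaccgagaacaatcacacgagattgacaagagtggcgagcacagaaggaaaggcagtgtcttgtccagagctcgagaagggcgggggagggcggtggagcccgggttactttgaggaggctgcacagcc
Csf2rb2, chr15:78305722-78305971, minus strand: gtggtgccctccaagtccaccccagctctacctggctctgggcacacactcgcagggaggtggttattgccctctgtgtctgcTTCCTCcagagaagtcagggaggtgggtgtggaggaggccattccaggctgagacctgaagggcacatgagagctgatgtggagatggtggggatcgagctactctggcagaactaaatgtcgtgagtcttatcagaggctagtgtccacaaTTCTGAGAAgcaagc
Csf2ra, chr19:61228419-61228668, minus strand: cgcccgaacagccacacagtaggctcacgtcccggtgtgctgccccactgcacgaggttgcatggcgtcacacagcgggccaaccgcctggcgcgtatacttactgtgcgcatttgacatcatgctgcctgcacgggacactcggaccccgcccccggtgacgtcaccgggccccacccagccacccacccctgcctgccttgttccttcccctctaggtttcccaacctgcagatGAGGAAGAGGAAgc
The Csf1 window held 1 NF-kB match, which 3.90% of 32851 promoter windows also held. The Csf2rb2 window held 1 STAT match, found in 7.02% of windows, and 1 GAGGAA. The Csf2ra window held 2 matches to GAGGAA, next to each other, and GAGGAA was present in 23.3% of windows. The Csf3r window, not shown, held 1 GAGGAA. The AP-1 pattern TGANTCA and the short elements TATAAA and CCAAT were searched as well and had 0 matches in the 5 windows. The Csf2 window held none of the letters searched. It lies before the RefSeq start at 54249899, whereas the GENCODE transcript matched to Csf2 starts at 54249667. The bases between these starts were not searched. No binding was measured, and a window without a match says only that those letters are not in it.

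Related genes were described from lists chosen with earlier results of these data known. Of the relatives that use the common beta chain, the ligand genes Il3 and Il5 were listed at 0 in both libraries. Il3ra, the interleukin-3 receptor alpha chain, had 10.8 FPKM under the RON TK-/- label and 10.2 FPKM under the WT label, a log2 ratio of 0.07. Il5ra was listed at 0 under the RON TK-/- label and had 0.0205 FPKM under the WT label. Like Csf2ra, the alpha chain gene Il3ra was thus level between the libraries as deposited. Relative to the median over detected genes Il3ra lay at -0.50 and Csf2ra at -0.54.

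The M-CSF receptor arm had 1 of 9 detected genes higher by 2-fold or more and 0 lower by as much under the RON TK-/- label, where 25.6% of all detected genes were higher and 8.71% lower. After subtracting the median 1 was higher and 1 lower, against 8.38% and 14.4%. Its median log2 ratio of 0.54 was close to the 0.57 of all detected genes. The higher gene was Inpp5d, the lipid phosphatase SHIP1 that limits PI3 kinase signalling, with 32.0 FPKM under the RON TK-/- label and 6.60 FPKM under the WT label. Il34, which encodes the other ligand of the M-CSF receptor, had 4.39 FPKM under the RON TK-/- label and 2.0 FPKM under the WT label. Cbl, a ubiquitin ligase that acts on that receptor, had 21.7 FPKM under the RON TK-/- label and 11.3 FPKM under the WT label. The exchange factor gene Sos1 had 3.58 FPKM under the RON TK-/- label and 1.79 FPKM under the WT label.

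Kinases and STAT factors downstream of the beta chain were mostly lower. Of 8 detected genes 0 were higher by 2-fold or more and 5 were lower by as much under the RON TK-/- label, against 25.6% and 8.71% of all detected genes, and the median log2 ratio was -1.45. The counts relative to the median were also 0 and 5, against 8.38% and 14.4%. Jak2, the kinase bound to the common beta chain, had 38.6 FPKM under the RON TK-/- label and 110 FPKM under the WT label. Stat5a had 6.95 FPKM under the RON TK-/- label and 33.2 FPKM under the WT label. Its close relative Stat5b, which completes the STAT5 pair, had 9.25 FPKM under the RON TK-/- label and 11.4 FPKM under the WT label, a smaller difference. The Src family kinase Lyn had 30.9 FPKM under the RON TK-/- label and 160 FPKM under the WT label. Stat3, which G-CSF activates, had 35.7 FPKM under the RON TK-/- label and 97.5 FPKM under the WT label. Stat5b and Stat3, and below Spi1, Socs2 and Tlr4, were singled out once their values were known.

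The STAT5 target and feedback list had 1 of 8 detected genes higher by 2-fold or more and 4 lower by as much under the RON TK-/- label, against 25.6% and 8.71% of all detected genes, with a median log2 ratio of -1.17. Relative to the median 0 were higher and 6 lower, against 8.38% and 14.4%. Socs3, a feedback inhibitor of the G-CSF receptor, had 30.7 FPKM under the RON TK-/- label and 515 FPKM under the WT label. The kinase gene Pim1 had 43.3 FPKM under the RON TK-/- label and 290 FPKM under the WT label. The feedback inhibitor Socs1 had 80.4 FPKM under the RON TK-/- label and 432 FPKM under the WT label. The survival gene Bcl2l1 had 30.2 FPKM under the RON TK-/- label and 95.2 FPKM under the WT label. The higher gene was Socs2, with 7.58 FPKM under the RON TK-/- label and 2.44 FPKM under the WT label, which lay within 2-fold relative to the median, at 0.75. Several of these genes also respond to other cytokines.

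Genes that GM-CSF is known to induce went both ways, with 3 of 6 higher by 2-fold or more and 2 lower by as much under the RON TK-/- label, against 25.6% and 8.71% of all detected genes. The counts were also 3 and 2 relative to the median, against 8.38% and 14.4%. The median log2 ratio of 1.36 lay between 2 sets of values and ranged from 0.80, relative to the median, to 2.57 with a minimum of 5 FPKM. The integrin gene Itgax had 29.5 FPKM under the RON TK-/- label and 2.89 FPKM under the WT label. Pparg, a nuclear receptor that interleukin-4 also raises, had 26.2 FPKM under the RON TK-/- label and 2.92 FPKM under the WT label. Bhlhe40 had 139 FPKM under the RON TK-/- label and 22.6 FPKM under the WT label. The lower genes were the chemokine Ccl17, with 1.37 FPKM under the RON TK-/- label and 10.4 FPKM under the WT label, and Spi1, which encodes PU.1, with 131 FPKM under the RON TK-/- label and 302 FPKM under the WT label. Csf2, like 2 of the 6 genes, was lower under the RON TK-/- label, while 3 were higher and 1 lay within 2-fold. A part of GM-CSF in these levels was not tested.

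Of the genes of cytokine mRNA decay 2 of 7 were higher by 2-fold or more and 2 lower by as much under the RON TK-/- label, with a median log2 ratio of 0.20. The share of higher genes was near the 25.6% of all detected genes, of which 8.71% were lower. Relative to the median 1 was higher and 3 were lower, against 8.38% and 14.4%. Zfp36, whose product binds AU-rich elements such as that of Csf2, had 30 FPKM under the RON TK-/- label and 223 FPKM under the WT label. The endoribonuclease gene Zc3h12a had 10.5 FPKM under the RON TK-/- label and 83.5 FPKM under the WT label. The family member Zfp36l1 had 33.2 FPKM under the RON TK-/- label and 8.18 FPKM under the WT label, and Khsrp, whose product also binds AU-rich elements, had 18.5 FPKM under the RON TK-/- label and 8.16 FPKM under the WT label. Under the WT label, where Csf2 and Csf3 were higher, Zfp36 and Zc3h12a were thus higher and Zfp36l1 and Khsrp lower. A part of mRNA decay in the ligand levels was not tested.

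Genes that induce colony-stimulating factors were lower for 7 of 9 detected members by at least 2-fold and higher for 1 under the RON TK-/- label, against 8.71% lower and 25.6% higher among all detected genes, with a median log2 ratio of -2.76. Subtracting the median left 7 and 1, against 14.4% and 8.38%. Il1b had 0.199 FPKM under the RON TK-/- label and 823 FPKM under the WT label, and Il1a had 0.725 FPKM under the RON TK-/- label and 418 FPKM under the WT label. The receptor gene Tlr2 had 3.18 FPKM under the RON TK-/- label and 211 FPKM under the WT label. The higher gene was Tlr4, the endotoxin receptor, with 73.8 FPKM under the RON TK-/- label and 5.72 FPKM under the WT label. Il17a was listed at 0 in both libraries.

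**Figure D4:**
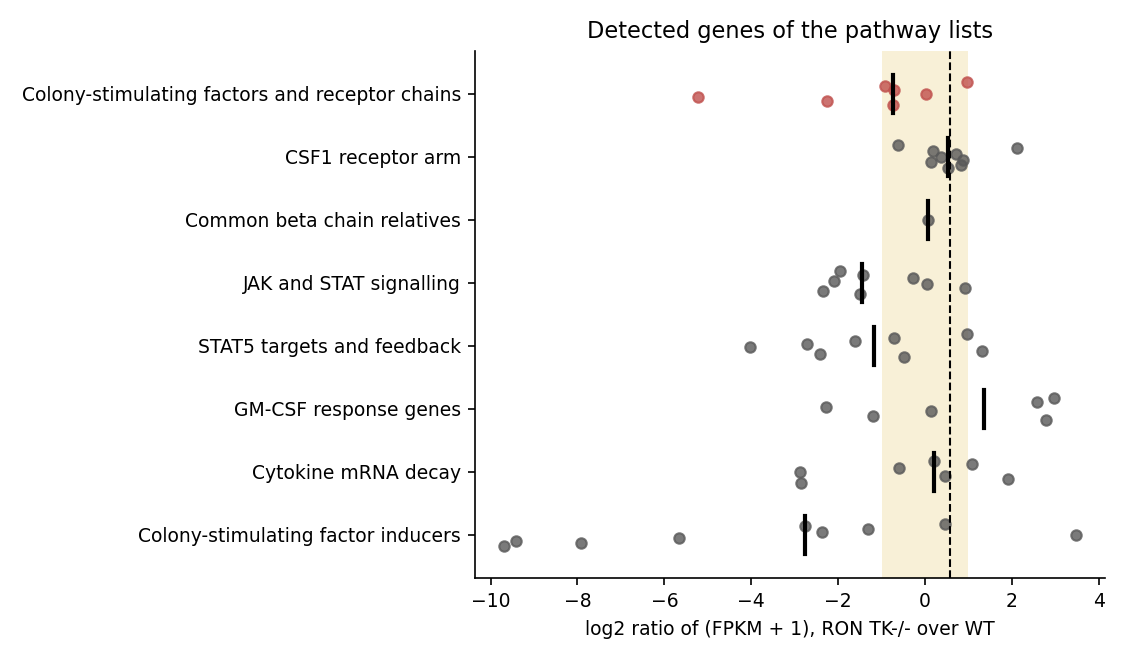
Log2 ratio of FPKM + 1, the library labelled RON TK-/- over the library labelled WT, for each detected gene (points) of the 7 colony-stimulating factor and receptor genes (top row) and of 7 related lists, with a bar at each list's median, the median of all detected genes as a dashed line and the range within 2-fold shaded. The M-CSF receptor arm centres near the dashed line, while the medians of the JAK and STAT list and the inducers lie to its left, at -1.45 and -2.76.

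The genes whose levels were most like those of each member were found by Euclidean distance of log2 (FPKM + 1) over the 2 libraries, a measure that any gene of similar abundance in both can meet. Nearest to Csf3 were Adora2a, an adenosine receptor gene with 0.224 FPKM under the RON TK-/- label and 35.7 FPKM under the WT label, and Fpr2, a formyl peptide receptor gene with 0.148 FPKM under the RON TK-/- label and 30.8 FPKM under the WT label. Their distances were 0.292 and 0.302, the largest of those given here. Csf2, under the minimum of 5 FPKM set for this search, was left out, as were small RNAs and Gm, LOC and Rik symbols. Nearest to Csf1 were Iqgap1 at 0.0598 and Mtpn at 0.0697. Csf2rb had Lgals9 at 0.0870 and Smpdl3a at 0.111, and Csf2rb2 had Ly6a at 0.125 and Anxa7 at 0.129. Csf2ra had Anapc5 at 0.0480 and Hmga1 at 0.0623, and Csf3r had Rangrf at 0.00925 and Gins1 at 0.0124.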

How the data were processed

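RNA-seq of 2 libraries was analysed, 1 per group, grouped by the genotype label. For each library the authors deposited FPKM per RefSeq transcript, in a table with the column names of Cufflinks, per the file headers, and the deposited coverage column is the mean read depth per base. Per the labels, libraries were made from total RNA with a TruSeq kit and read as single reads of 50 bases. DESeq and the build mm10 are named, without role or version, per the submitters' processing notes. Aligner, annotation release and strand use were not given in the sources used here.

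Rows were summed per gene symbol. Ratios are log2 of (FPKM + 1), the library labelled RON TK-/- over the library labelled WT. A gene was detected with 1 FPKM or more in either library, and 2-fold differences were counted. Values relative to the median had the median log2 ratio of detected genes subtracted. Reads were estimated as coverage times length over 50. Counting intervals at the 95% level are exact Poisson for FPKM, exact binomial for ratios and Wilson for shares. They leave out the spread between cultures, which 1 library per group cannot give, and no test was run. File starts count from 0 and are printed counted from 1. Windows of 50 bases were matched on both strands to all GENCODE M21 transcripts. The ratio procedure was tested on simulated data. Python 3.11.15, pandas 2.3.3, SciPy 1.17.1 and Matplotlib 3.10.9 were used.

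The members, the 7 related lists and the 11 marker lists were chosen with earlier results of these data known. Of 129 list entries 127 were found, 2 of them under an older symbol, and Ly6g and Trac were not used here. Named genes were the 7 members, the label check genes, up to 4 detected genes per related list with the largest absolute ratio, the 2 genes nearest in level to each member with at least 5 FPKM in a library, and locus neighbours at least 2-fold apart. For the JAK and STAT list, 1 gene that the rule names is not reported here. Other settings tried were a pseudocount of 0.1 or 5, a minimum of 5 FPKM or none, TPM, a median ratio rescaled to 0, 1 row per gene (the most abundant), and a threshold of 1.5-fold or 4-fold. Chosen after seeing the data were estimated reads, and the 1.5-fold threshold after rescaling.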

Additional observations from a re-analysis of the deposited data

How the results depend on the processing

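No paired analysis was possible because there was 1 library per group and no test. The count of members at least 2-fold higher, 0 as reported, was 1 (Csf3r) with a pseudocount of 0.1, with TPM and with a 1.5-fold threshold. The count at least 2-fold lower, 2 as reported, was 1 with a pseudocount of 5 or a 5 FPKM minimum, 3 with TPM, where Csf2rb2 reached -1.01, and 5 with rescaling to a median ratio of 0, with a 1.5-fold threshold, or with both. The median log2 ratio of the members, -0.73 as reported, was -1.30 with rescaling to a median ratio of 0 under either threshold, -0.80 with TPM, -0.82 with the most abundant row only and -0.77 with estimated reads. The sign of the Csf2ra ratio turned in 4 of 11 alternatives, with a range of -0.54 to 0.03. The other 6 member ratios kept their sign in all alternatives that gave a value. Csf2 ranged from -4.62 to -0.84 and Csf3 from -8.51 to -3.04, mostly with the pseudocount.

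In estimated reads the Csf2rb2 share was 32.3% under the RON TK-/- label and 35.8% under the WT label. The share of the Csf1 row NM_001113529 was 10.2% under the RON TK-/- label and 6.35% under the WT label, that of NM_007778 was 85.1% under the RON TK-/- label and 89.5% under the WT label, and that of NM_001113530 was 4.63% under the RON TK-/- label and 4.14% under the WT label. Reads count long rows more than FPKM does. Among the related lists, the medians of the M-CSF receptor arm (-0.03), the beta chain relatives (-0.50) and the mRNA decay list (-0.37) were negative after rescaling to a median ratio of 0. Depth limited Csf2 under the RON TK-/- label, where about 5 reads stood behind its value.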

Other observations

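The genes beside the members on their chromosomes were mostly within 2-fold. Neighbours were the nearest genes, up to 2 on each side, with small RNAs and Gm, LOC and Rik symbols left out. Csf2ra had neighbours on its lower coordinate side only. Of 22 neighbours, other members not counted, 14 were detected. Under the RON TK-/- label 2 were higher by 2-fold or more and 1 was lower by as much. Of all detected genes 25.6% were higher and 8.71% lower by that much. The median log2 ratio of the detected neighbours was 0.58, near the 0.57 of all detected genes. Csf3 lay between Psmd3, a proteasome subunit gene 5335 bases away with 41.4 FPKM under the RON TK-/- label and 35 FPKM under the WT label, and Med24, a Mediator subunit gene 962 bases away with 11.7 FPKM under the RON TK-/- label and 6.02 FPKM under the WT label. The large Csf3 difference was thus not seen in the genes at its sides. Il3, 15186 bases from Csf2, was listed at 0 in both libraries. Ncf4, a NADPH oxidase subunit gene 19930 bases from Csf2rb2, had 91.3 FPKM under the RON TK-/- label and 99.5 FPKM under the WT label, a smaller difference than that of either beta chain.

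The neighbours at least 2-fold apart were Ahcyl1 beside Csf1, with 90.1 FPKM under the RON TK-/- label and 35.5 FPKM under the WT label, Tst on the far side of Csf2rb, with 3.81 FPKM under the RON TK-/- label and 0.145 FPKM under the WT label, and Zc3h12a, 896778 bases from Csf3r, whose levels are given above. Ahcyl1, 44500 bases from Csf1, was higher in the library in which Csf1 was lower.

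Markers of cell types other than macrophages and fibroblasts were low. The 3 CD3 genes Cd3e, Cd3d and Cd3g were listed at 0 in both libraries, and the T cell list summed to 1.15 FPKM under the RON TK-/- label and 4.36 FPKM under the WT label, of which Lck had 0.340 FPKM under the RON TK-/- label and 3.96 FPKM under the WT label. Under the RON TK-/- label the summed FPKM was 0.0495 for the B cell list, 0.354 for the NK cell list, 0.439 for the mast cell and basophil list, 0.654 for the eosinophil list, 0.561 for the dendritic cell list, 5.13 for the endothelial list, and 0 for the erythroid list. Under the WT label it was 0.166 for the B cell list, 0 for the NK cell list, 0.735 for the mast cell and basophil list, 0.655 for the eosinophil list, 1.43 for the dendritic cell list, 8.44 for the endothelial list, and 0.0910 for the erythroid list.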
